A study of Mus musculus with 6 samples.

Results

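Cycling epithelial cells made up 226 of the 14335 cell barcodes in the 2 alveolosphere libraries, and of 33286 barcodes in the whole series. An alveolosphere is an organoid that alveolar type 2 epithelial cells (AEC2s) form in matrigel when lung fibroblasts (FBs) are present. A barcode counted as cycling when it held at least 10000 unique molecular identifiers (UMIs, each standing for 1 captured transcript), at least 2 UMIs of the epithelial adhesion gene Epcam, and at least 200 CPM of Mki67 and Top2a together. CPM are counts scaled to 1000000 UMIs of the barcode, or of all cells summed. Barcodes were left out when collagen transcripts (Col1a1 and Col1a2) reached 200 CPM or when Cldn4 and Sfn, markers of the transitional PATS state, reached 1000 CPM. The reference was the 2278 barcodes that met every criterion except the one on Mki67 and Top2a. These cells were thus selected on Mki67 and Top2a, so every difference between cycling and non-cycling cells is given as a description, with no test.

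In both cultures the AEC2s were tomato+ cells sorted from uninjured adult SpcCreER mice carrying a Rosa-tomato reporter, in which Cre under the surfactant protein C promoter had been activated by 2 tamoxifen injections of 1 mg/kg. The FBs were GFP+ cells from Pdgfra-EGFP mice, so only Pdgfra-positive FBs were in culture. In the normal culture the FB donors had received PBS, and in the fibrogenic culture 2 U/kg bleomycin by oropharyngeal aspiration, with lungs taken at day 14. Cells of 3 mice were pooled for each cell type, and the mixed cells grew on transwell inserts in MTEC+ medium for 2 weeks. Each condition had 1 library, so the effect of FB origin and any difference between the libraries cannot be told apart, and intervals below cover counting error only. The library with normal FBs held 211680702 UMIs over 5441 barcodes and that with fibrogenic FBs 238618743 UMIs over 8894 barcodes, of which 1646 and 5344 barcodes fell below 10000 UMIs. The reporter transcripts are not among the genes measured.

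AEC2s secrete surfactant and are the cells that divide to renew the alveolus. Their progeny either remain AEC2s or flatten into gas-exchanging alveolar type 1 cells (AEC1s), and on that path they can pass through a PATS state, a transitional epithelial state seen after injury. A dividing cell first licenses and copies its DNA (S phase), then builds a spindle and separates its chromosomes (G2 and mitosis, G2/M), and each step has its own set of periodically expressed genes. Mki67 encodes a protein that coats mitotic chromosomes, and Top2a encodes the topoisomerase that untangles copied DNA. Both peak in G2/M.

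The normal library contained 155 cycling cells among 1465 eligible epithelial barcodes, a share of 10.6% (exact 95% binomial interval 9.05 to 12.3). The fibrogenic library contained 71 among 1039, or 6.83% (5.38 to 8.54). The summed level of Mki67 and Top2a had a median of 598 CPM in the cycling cells of the normal library, with a highest value of 1901, and a median of 778 and highest value of 1419 in those of the fibrogenic library. Cells just inside the limit held 202, 216 and 224 CPM in the normal library and 256, 262 and 270 in the fibrogenic library, while those just outside held 188, 185 and 179, and 188, 181 and 180. Most reference cells, 944 of 1310 and 763 of 968, held no UMI of either gene. Cycling cells were deeper than the reference, with a median of 57329 against 41608.5 UMIs in the normal library and 63407 against 40453 in the fibrogenic library. Their mitochondrial share was 4.5% against 5.13% and 5.45% against 5.68%. The libraries shared 13 barcodes, and 1 of these was a cycling cell of the fibrogenic library and none a cycling cell of the normal library.

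The share of cycling cells was highest among the deepest barcodes. From 50000 UMIs up it was 23.6% in the normal library (110 of 467) and 20.9% in the fibrogenic library (63 of 301). Between 30000 and 50000 UMIs it was 3.31% (25 of 756) and 1.29% (7 of 543). Among the shallowest barcodes, between 10000 and 30000 UMIs, it was above that of the middle range in the normal library and below it in the fibrogenic library, with 20 of 242 (8.26%, 5.12 to 12.5) against 1 of 195 (0.513%, 0.0130 to 2.82). With every cell thinned to 10000 UMIs and a limit of 2 UMIs of Mki67 and Top2a, the shares were 11.5% and 7.80%. A barcode that holds more than 1 cell also has more UMIs, and the part of such barcodes in the shares was not tested.

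Cycling was uncommon among cells with high Hopx, a homeodomain gene that marks AEC1s. Of barcodes with at least 500 CPM of Hopx, 7 of 247 (2.83%, 1.15 to 5.75) cycled in the normal library and 3 of 206 (1.46%, 0.301 to 4.20) in the fibrogenic library. Below that level the shares were 12.2% (148 of 1218) and 8.16% (68 of 833). The limit of 500 was set after the values were seen, and 26 and 28 barcodes lay within 20% of it. Epithelial barcodes with Cldn4 and Sfn at or above 1000 CPM, which the rule keeps out, held 1 barcode at the cycling level among 170 (0.588%, 0.0149 to 3.23) and 1 among 216 (0.463%, 0.0117 to 2.55). Cycling cells also thinned out at the top of the Sftpc range, Sftpc being the surfactant protein C gene and the defining AEC2 marker. Among the 489 normal-library barcodes with the highest Sftpc 35 cycled (7.16%), against 62 of the 488 with the lowest (12.7%) and 58 of the 488 between them (11.9%). In the fibrogenic library 2 of the 347 highest cycled (0.576%), against 29 of the 346 lowest (8.38%) and 40 of the 346 between (11.6%).

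**Figure D1:**
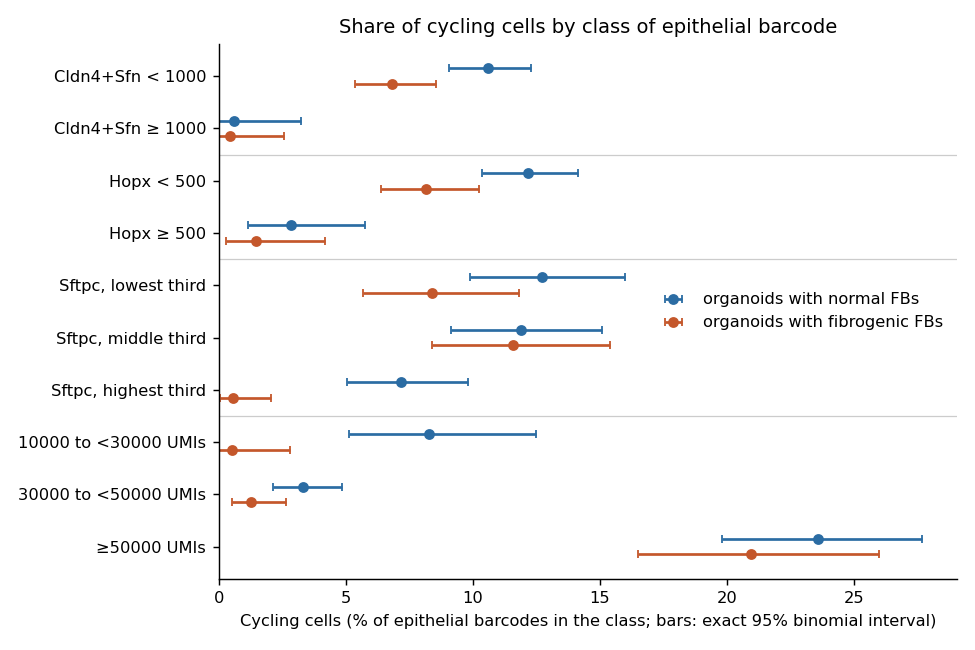
The plot gives the percentage of cycling cells (x axis) in classes of epithelial barcodes (y axis, limits in CPM or UMIs per barcode) for organoids with normal (blue) and fibrogenic (orange) FBs, and bars are exact 95% binomial intervals. The shares lie at or below 2.83% in cells with high Hopx or high Cldn4 and Sfn and above 20% in barcodes with at least 50000 UMIs.

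Cell cycle genes that the rule did not use were checked cell by cell. The cells were not thinned for this, and cycling cells were the deeper, which raises detection of any gene in them. Cdk1, the kinase that drives entry into mitosis, had a UMI in 153 of 155 cycling cells of the normal library and in 71 of 71 of the fibrogenic library, against 29.2% and 20.5% of reference cells. The survivin gene Birc5, part of the chromosomal passenger complex, was found in 147 of 155 and 71 of 71, against 13.4% and 12.1%. Ccnb1 (cyclin B1) was found in 85.8% and 93.0% of cycling cells and in 7.10% and 4.65% of the reference. Of the S phase genes checked, the helicase gene Mcm5 had a UMI in 80.6% and 91.5% of cycling cells against 15.0% and 14.0% of the reference, and the replication clamp gene Pcna in 91.6% and 100% against 74.6% and 76.8%. Pcna was thus the gene of the 5 found most often in non-cycling cells. Every cycling cell contained Sftpc transcripts, with a lowest, median and highest value of 1057, 71334 and 134862 CPM in the normal library and 17763, 67282 and 107975 in the fibrogenic library. In FB barcodes of the same libraries Sftpc stood at 324 and 284 CPM over all cells summed. The label of cycling epithelial cells therefore matched the markers, with Sftpc present throughout.

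For each gene, UMIs were summed over the cycling cells and over the reference of a library, and the log2 ratio of their CPM was taken after adding 1 CPM. Genes needed at least 50 UMIs in the cells compared, and a gene was called higher or lower at a change of at least 2-fold. Of 13113 genes in the normal library 5.21% were higher and 1.21% lower in cycling cells, and of 12579 in the fibrogenic library 5.89% were higher and 3.43% lower. The median over all genes was -0.01 and -0.04. A gene that is nearly absent from the reference passes the 50 UMIs only through the cycling cells, so the counts below are read as a description.

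The machinery that licenses and fires replication origins was higher throughout: 18 of 18 genes were at least 2-fold higher in both libraries, with a median log2 ratio of 2.19 and 2.26. Mcm5, a subunit of the replicative helicase, stood at 56.8 CPM (95% interval 52.1 to 61.8) in cycling cells against 7.67 CPM (6.98 to 8.40) in the reference of the normal library, and at 68.8 CPM (61.6 to 76.7) against 8.95 CPM (8.07 to 9.90) in the fibrogenic library. Cdc45, which activates that helicase, was the highest of the group, with a log2 ratio of 3.14 and 3.25. Genes of the replication fork and of nucleotide supply had 20 of 21 members at least 2-fold higher in each library. Rrm2, the inducible subunit of ribonucleotide reductase, led them with 126 against 2.96 CPM and 164 against 3.64 CPM, while Ung, which removes uracil from DNA, had log2 ratios of 0.96 and 0.62 and was the exception. Tk1 (thymidine kinase 1) followed at 3.99 and 4.35. Together these 39 S phase genes had a median log2 ratio of 2.32 and 2.40.

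Genes that follow replication were also higher as groups. All 13 chromatin assembly genes reached 2-fold in both libraries (median 2.27 and 2.30), with the histone chaperone gene Asf1b at 3.72 and 3.84. All 13 genes of homologous recombination and the replication checkpoint did so too (median 2.72 and 2.91), with the checkpoint mediator gene Clspn at 3.77 and 4.15. Of 9 condensin and cohesin genes, which compact and hold sister chromatids, 8 were at least 2-fold higher (median 3.47 and 3.68), with Smc3 at 0.89 and 1.00 on the log2 scale. The cohesin acetyltransferase gene Esco2, on none of the lists, had log2 ratios of 4.89 and 5.03.

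The largest differences lay in G2/M genes, whose 71 members without Mki67 and Top2a had a median log2 ratio of 3.84 in the normal and 4.42 in the fibrogenic library, with 70 of 71 at least 2-fold higher in each. The cells were chosen on Mki67 and Top2a, which peak in G2/M, so the rule itself favours this order over the S phase genes. All 19 mitotic kinases, cyclins and checkpoint genes reached 2-fold (median 3.64 and 4.20). Cdk1 stood at 390 CPM (377 to 403) against 13.0 CPM (12.1 to 14.0), and at 480 CPM (461 to 500) against 10.6 CPM (9.66 to 11.7). Aurkb, the kinase that corrects faulty spindle attachments, was at 74.8 against 0.737 CPM and at 100.5 against 0.981 CPM. Plk1, a kinase needed at most steps of mitosis, was at 77.5 against 1.59 and at 77.6 against 0.957 CPM. The phosphatase gene Cdc25b, which helps to switch Cdk1 on, changed least in this group, with log2 ratios of 1.54 and 1.53. All 22 spindle and kinesin genes were at least 2-fold higher (median 4.08 and 4.57). Nusap1, which bundles spindle microtubules, had log2 ratios of 5.89 and 6.16, and the motor gene Kif11, which pushes spindle poles apart, 5.48 and 5.82. The 17 centromere and kinetochore genes had a median of 4.16 and 4.5, led by Cenpf at 5.30 and 5.79 and the kinetochore motor gene Cenpe at 5.30 and 5.88.

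Mitotic exit and cytokinesis genes had 12 of 13 members at least 2-fold higher (median 3.71 and 3.85). Ube2c, the ubiquitin-conjugating enzyme of the anaphase-promoting complex, was at 657 CPM (641 to 674) against 13.2 CPM (12.3 to 14.2) in the normal library and 741 CPM (717 to 766) against 9.0 CPM (8.11 to 9.95) in the fibrogenic library. Pttg1, the securin gene whose product that complex destroys, was the exception, at 29.5 CPM (26.1 to 33.1) against 31.3 CPM (29.9 to 32.8) and at 29.8 CPM (25.1 to 35.1) against 32.5 CPM (30.8 to 34.3). Its intervals overlapped between cycling and reference cells in both libraries, and FB barcodes held a like 30.9 and 28.3 CPM.

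**Figure D2:**
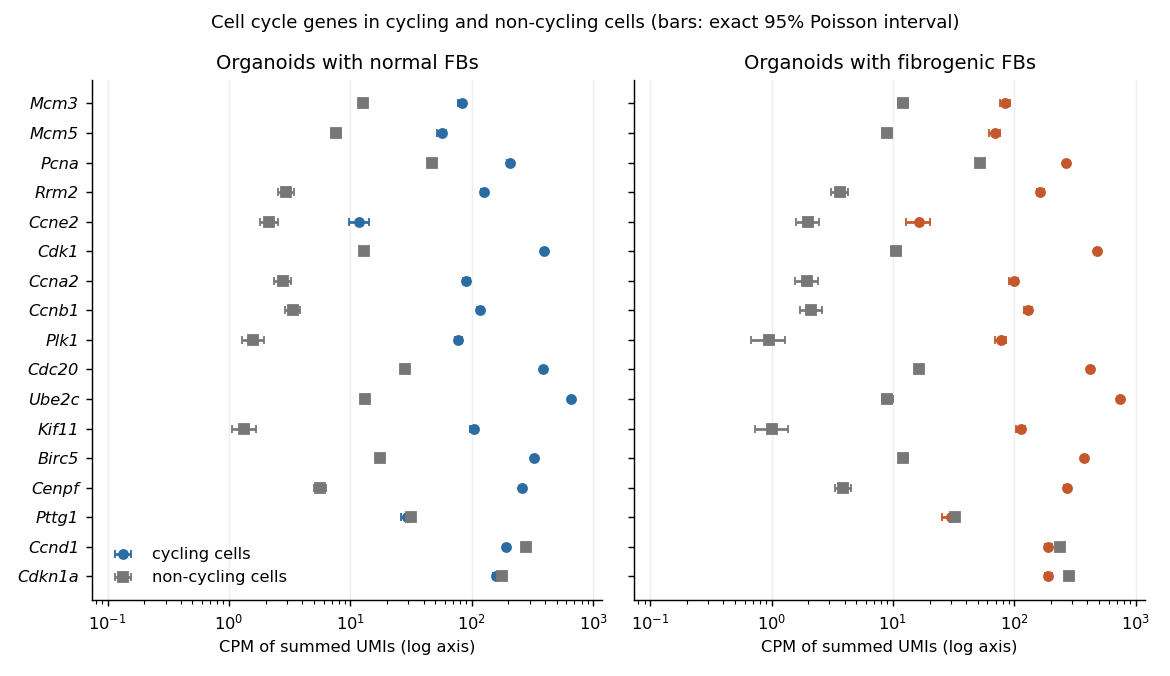
The plot gives the summed level of 17 cell cycle genes in CPM (log x axis) in cycling cells (circles) and non-cycling cells (grey squares) of organoids with normal (left) and fibrogenic (right) FBs, and bars are exact 95% Poisson intervals. S phase and G2/M genes are separated between the classes except Pttg1, while Ccnd1 and Cdkn1a have the lower summed level in cycling cells.

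Regulators that act before S phase were mixed. Of 17 genes for G1 cyclins, their kinases and E2F factors, 8 were at least 2-fold higher in the normal library, and 10 were higher and 1 lower in the fibrogenic library (median 1.00 and 1.10). The atypical repressor gene E2f8 was the highest, at 22.3 against 0.419 CPM and 28.4 against 0.646 CPM, and Ccne1 (cyclin E1), which acts at the start of S phase, rose to 27.1 from 3.15 CPM and to 35.7 from 4.02 CPM. The D-type cyclins, which respond to growth signals, did not share this pattern. Ccnd1 was lower in cycling cells, at 192 against 277 CPM and 190 against 235 CPM, and Ccnd3 had log2 ratios of -0.38 and -0.42. Ccnd2 was scarce in the epithelium (7.11 and 4.17 CPM in cycling cells) and high in FB barcodes (367 and 371 CPM). It was the gene called lower in the fibrogenic library (log2 ratio -1.67). In cycling cells of the normal library 34 of its 68 UMIs came from 1 cell, without which its level was 3.62 CPM.

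Of 13 inhibitors of cyclin-dependent kinases and cell cycle exit genes, 2 were at least 2-fold higher in both libraries, and 0 were lower in the normal and 2 in the fibrogenic library, Cdkn2b and Trp53inp1. The higher genes belong to the INK4 group that binds Cdk4 and Cdk6: Cdkn2d was at 103 against 12.2 CPM and 109 against 10.1 CPM, and Cdkn2c at 38.3 against 7.62 CPM and 36.3 against 6.82 CPM. Cdkn2b, another INK4 gene, went the other way, at 46.5 against 86.8 CPM and 39.4 against 95.5 CPM. The p53 target gene Cdkn1a, whose product p21 halts the cycle, stood at 157 against 178 CPM in the normal library and at 190 against 283 CPM in the fibrogenic library. Per cell its median went the other way, at 104 against 81.8 CPM and 140 against 134 CPM, and the highest reference cells held 3250 and 4885 CPM, so the lower sum did not hold for the typical cell. The list as a whole had a median log2 ratio of -0.18 and -0.41. Of 16 p53 targets none reached 2-fold in the normal library, while 1 was higher and 2 lower in the fibrogenic library (median -0.12 and -0.25). The shares over all genes were 5.21% and 5.89% higher and 1.21% and 3.43% lower (normal, then fibrogenic).

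The promoters of these genes were read from RefSeq because S phase and G2/M genes are known to carry different short elements, read by the E2F and DREAM systems of cell cycle control. CHR was searched as TTTGAA, the CCAAT box as CCAAT, and the E2F element as TTTCCCGC, TTTGGCGC, TTTCGCGC or TTTGCCGC, each on both strands, in 300 bases from 250 before to 50 after the start of the gene in GRCm38.p6. Promoters were found for 62 of the 71 G2/M genes and 31 of the 39 S phase genes. A CHR was present in 39 of 62 G2/M promoters (62.9%) and 6 of 31 S phase promoters (19.4%), against 18.1% of 27025 promoters in all. A CCAAT box was present in 45 of 62 (72.6%) and 17 of 31 (54.8%), against 37.9% of all. The E2F element went the other way, with 3 of 62 (4.84%) and 11 of 31 (35.5%), against 2.32% of all. Both CHR and CCAAT were present in 33 of 62 G2/M promoters (53.2%) and in 7.12% of all promoters. With only the 250 bases before the start, a window chosen after these values were seen, the CHR share of G2/M promoters was 29.0% against 16.3% of all, that of CHR with CCAAT 25.8% against 5.73%, and the E2F share of S phase promoters 25.8% against 1.91%. Genes whose start lies close together can share a promoter, and a match is a description of letters, not a bound site.

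Below are the 200 bases before the start, 5′ to 3′ on the gene's strand, of 3 genes in each group. They have the highest mean log2 ratios among genes whose elements lie within these 200 bases, counting Top2a among the G2/M genes. Genes of 1 chromosome were left out of this choice. In the first 3, capitals mark CHR (TTTGAA or TTCAAA) and CCAAT boxes (CCAAT or ATTGG), which overlap at 1 place in Ube2c. Top2a lies on the minus strand (chr11:99024190-99024389), and Ube2c (chr2:164769729-164769928) and Kif11 (chr19:37376182-37376381) on the plus strand.
Top2a: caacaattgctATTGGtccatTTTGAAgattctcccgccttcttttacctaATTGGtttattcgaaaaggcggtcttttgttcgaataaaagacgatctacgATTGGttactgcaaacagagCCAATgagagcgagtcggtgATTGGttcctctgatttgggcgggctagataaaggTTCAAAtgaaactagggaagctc
Ube2c: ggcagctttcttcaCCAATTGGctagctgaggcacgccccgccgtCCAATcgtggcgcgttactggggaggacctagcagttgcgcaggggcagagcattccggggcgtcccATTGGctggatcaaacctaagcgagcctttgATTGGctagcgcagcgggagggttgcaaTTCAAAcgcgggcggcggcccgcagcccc
Kif11: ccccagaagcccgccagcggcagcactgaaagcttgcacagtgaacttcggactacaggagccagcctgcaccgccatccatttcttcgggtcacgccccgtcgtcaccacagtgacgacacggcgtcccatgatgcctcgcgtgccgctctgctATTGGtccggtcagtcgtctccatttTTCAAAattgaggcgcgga
In the next 3, capitals mark the E2F element only, and the 2 matches of Mcm5 overlap. Mcm5 (chr8:75109309-75109508) and Cdc6 (chr11:98907951-98908150), which loads the helicase, lie on the plus strand and Pola1 (chrX:93632156-93632355), the catalytic subunit of the priming polymerase, on the minus strand.
Mcm5: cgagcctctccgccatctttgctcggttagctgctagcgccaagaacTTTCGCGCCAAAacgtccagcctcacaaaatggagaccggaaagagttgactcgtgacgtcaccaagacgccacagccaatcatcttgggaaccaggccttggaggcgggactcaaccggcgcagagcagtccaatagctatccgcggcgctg
Pola1: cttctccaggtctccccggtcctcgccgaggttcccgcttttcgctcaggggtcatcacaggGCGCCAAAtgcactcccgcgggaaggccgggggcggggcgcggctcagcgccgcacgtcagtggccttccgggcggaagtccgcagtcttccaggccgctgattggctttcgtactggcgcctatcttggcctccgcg
Cdc6: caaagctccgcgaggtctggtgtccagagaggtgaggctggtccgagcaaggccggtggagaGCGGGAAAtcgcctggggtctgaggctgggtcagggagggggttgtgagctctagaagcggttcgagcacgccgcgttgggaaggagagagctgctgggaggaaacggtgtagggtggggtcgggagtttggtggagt
The CHR nearest the start begins 23 bases before it in Top2a, 29 in Ube2c and 19 in Kif11. The E2F matches begin 153 and 149 bases before the start in Mcm5 and 138 in both Pola1 and Cdc6.

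To see where in the cycle the cells were, each of 2504 cells was thinned to 10000 UMIs and its UMIs of 39 S phase genes and of 67 G2/M genes were counted. The 67 leave out Stmn1 and 3 tubulin genes, which non-dividing cells also express, a choice made after the values were seen. Cycling cells held a median of 24 S phase and 70 G2/M UMIs in the normal library and 31 and 91 in the fibrogenic library, against 3 and 5 in the reference of either library. Summed over both sets, 133 of 155 (85.8%) and 70 of 71 (98.6%) exceeded the 99th percentile of the reference. Unthinned, S phase genes had a median of 2404 CPM in cycling cells and 282 in the reference of the normal library, and 3059 and 283 in the fibrogenic library. Because Mki67 and Top2a peak in G2/M, the rule itself favours cells in that phase, and cells in early S phase can lie in the reference. Indeed 34 of 1310 (2.60%) and 16 of 968 (1.65%) reference cells held at least as many S phase UMIs as the median cycling cell, with a median of 16 and 17 G2/M UMIs. As many G2/M UMIs as the median cycling cell were held by 5 (0.382%) and 1 (0.103%) reference cells.

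More G2/M than S phase UMIs were found in 129 of 155 cycling cells (83.2%) in the normal library and 61 of 71 (85.9%) in the fibrogenic library. In the reference, with few UMIs of either set, this held for 70.8% and 64.5% of cells, and the sets are of unequal size (39 and 67 genes). With all 71 G2/M genes the shares were 96.8% and 97.2% in cycling cells and 95% and 94.0% in the reference. The remaining 26 and 10 cells, which leaned to S phase, had the lower levels of the genes of the rule, with a median of 361 against 630 CPM and 383 against 801. The 2 subsets were split on the summed S phase and G2/M genes, so the following levels describe them. In S-leaning cells Pcna was at 356 against 178 CPM in G2/M-leaning cells of the normal library and at 500.2 against 236 CPM in the fibrogenic library. Ccne2 (cyclin E2) was at 37.7 against 6.94 CPM and at 63.6 against 9.53 CPM. Ube2c ran opposite, at 35.0 against 772 CPM and 38.5 against 841 CPM, and so did Ccnb1, at 12.1 against 137 CPM and 30.1 against 144 CPM. Sftpc, which had no part in the split, summed to 66306 against 72223 CPM in the normal library and 77964 against 65876 CPM in the fibrogenic library. Its median per cell was higher in S-leaning cells of both, at 76536 against 70906 CPM and 81533 against 66166 CPM.

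**Figure D3:**
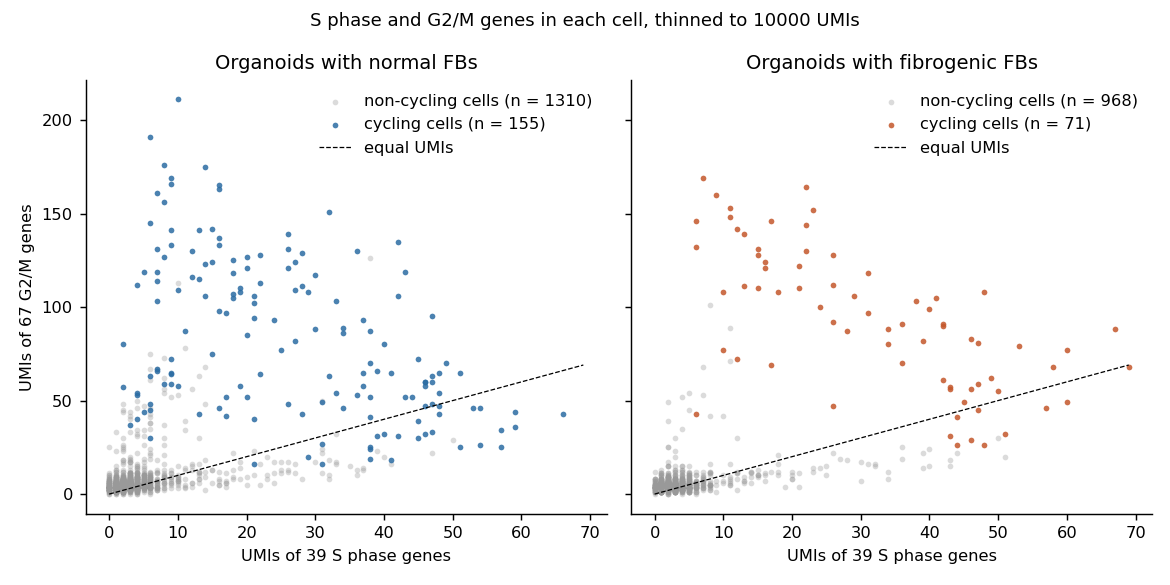
Each point is a cell thinned to 10000 UMIs, with its UMIs of 39 S phase genes on the x axis and of 67 G2/M genes on the y axis, for organoids with normal (left) and fibrogenic (right) FBs. Cycling cells (coloured) lie mostly above the dashed line of equal UMIs, 129 of 155 and 61 of 71, and most non-cycling cells (grey) lie near the origin.

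Most AEC2 genes differed by less than 2-fold between cycling and non-cycling cells, and so did most of all genes measured. Over all genes 5.21% and 5.89% were higher and 1.21% and 3.43% lower (normal, then fibrogenic). None of the AEC2 genes was 2-fold higher, and the median log2 ratio over 22 genes in the normal and 21 in the fibrogenic library was -0.14 and -0.16, with 19 of 22 and 16 of 21 below 0. Sftpc stood at 71303 CPM in cycling cells against 77961 CPM in the reference of the normal library and at 67383 against 77147 CPM in the fibrogenic library. Of the other surfactant genes Sftpb had log2 ratios of 0.06 and 0.13, Sftpa1 -0.01 and -0.04, and the collectin gene Sftpd 0.19 and 0.44. Among cells below 500 CPM of Hopx, Sftpb came to -0.052 and -0.052 and Sftpa1 to -0.18 and -0.24. Lower values were found for Scd1, which makes monounsaturated fatty acids for surfactant lipid (5116 against 6819 CPM, and 5239 against 7845 CPM), for the summed level of the lysozyme gene Lyz2 (log2 ratios -0.42 and -0.38) and for the complement gene Hc (-0.44 and -0.68). Per cell the Lyz2 median was 3016 against 3257 CPM in the normal library and 4116 against 3713 CPM, the higher in cycling cells, in the fibrogenic library. The gene called lower was Dlk1, a Notch-family ligand, with 1 UMI in the cycling cells of the normal library (0.105 CPM, 0.00265 to 0.583, against 2.24 CPM, 1.88 to 2.66) and none in either class of the fibrogenic library. Fatty acid and cholesterol synthesis genes had medians of 0.03 and 0.10. In it the elongase gene Elovl6 was higher (log2 ratio 1.22 and 1.03), from 6.69 and 5.21 CPM in cycling cells.

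AEC1 genes were lower in cycling cells as a group. Of 17 measured genes 8 were at least 2-fold lower in the normal and 9 in the fibrogenic library, with a median log2 ratio of -1.0 and -1.03. Hopx was at 112 CPM (105 to 119) against 381 CPM (376 to 386) and at 92.4 CPM (84.0 to 101) against 454 CPM (448 to 461). Clic5, which anchors the membrane to actin, was at 18.6 against 106 CPM and 8.13 against 120 CPM, and the scaffold gene Akap5 at 34.5 against 130 CPM and 27.5 against 170 CPM. Ager, the receptor gene that is abundant in AEC1s, had log2 ratios of -0.77 and -0.96. Pdpn (podoplanin) was the exception, at 42.9 against 37.1 CPM and 49.4 against 43.3 CPM.

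The median difference was smaller without the Hopx-high cells. With barcodes of at least 500 CPM of Hopx removed from both classes, leaving 148 cycling and 1070 reference cells in the normal library and 68 and 765 in the fibrogenic library, the AEC1 median was -0.07 and -0.14. None of 17 AEC1 genes was then 2-fold lower in the normal library and 2 of 15 were in the fibrogenic library. Ager came to log2 ratios of 0.02 and 0.06, and Pdpn to 0.54 and 0.69. Others stayed below 0 in both libraries, among them Clic3 (-0.64 and -1.32), Clic5 (-0.61 and -1.23) and the water channel gene Aqp5 (-0.54 and -0.45). Rtkn2, often used as an AEC1 marker, was then higher in cycling cells, at 6.51 against 1.11 CPM and 8.45 against 1.84 CPM. S phase and G2/M medians changed little under the same restriction (2.24 and 3.83, and 2.33 and 4.30), and the AEC2 medians became -0.27 and -0.28. The restriction was chosen after seeing the data and uses an AEC1 gene.

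**Figure D4:**
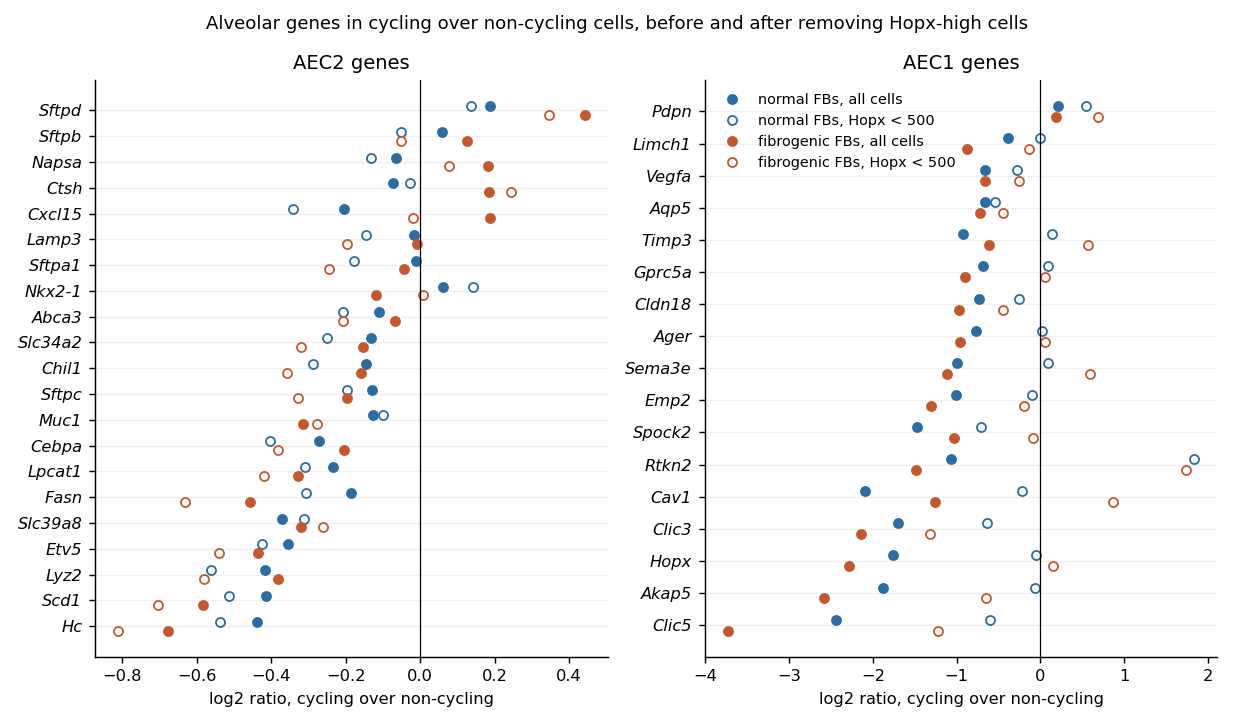
The plot gives the log2 ratio of cycling over non-cycling cells (x axis, after adding 1 CPM) for AEC2 genes (left) and AEC1 genes (right) in organoids with normal (blue) and fibrogenic (orange) FBs, with filled circles for all cells and open circles for cells below 500 CPM of Hopx. The AEC2 genes plotted, which leave out Dlk1 for its few UMIs, lie between -0.81 and 0.44, whereas the AEC1 genes move from a median of -1.0 and -1.03 to -0.07 and -0.14.

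PATS genes other than Cldn4 and Sfn, which the rule used, had a median log2 ratio of -0.24 and -0.28, with 3 of 19 at least 2-fold lower in each library. The calcium-binding gene S100a6 was the lowest (-1.35 and -1.93). Without the Hopx-high cells it was 0.50 in the normal library, and in the fibrogenic library its sign did not change. Of its UMIs in cycling cells, 198 of 1034 and 282 of 628 came from 1 cell each. Without these cells its level fell from 108 to 88.0 CPM and from 131 to 74.3 CPM. The keratin gene Krt8, often used for the transitional state, was at 458 against 449 CPM and 449 against 464 CPM. Major histocompatibility and interferon-response genes had 3 of 16 lower in each library (median -0.34 and -0.55), led by Ifit3 with 6 UMIs in the cycling cells of the normal library (0.628 against 22.2 CPM) and 1.04 against 20.2 CPM in the fibrogenic library. Below 500 CPM of Hopx this list had 2 of 16 and 0 of 14 genes lower, with medians of -0.25 and -0.37. Ribosome biogenesis genes were higher by less than 2-fold for the most part (median 0.54 and 0.56, with 2 and 3 of 15 called), including the snoRNP core genes Nop56 (1.21 and 1.34) and Nop58 (1.01 and 1.11). Beside these counts, 5.21% and 5.89% of all genes were higher and 1.21% and 3.43% lower (normal, then fibrogenic).

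Few signalling and energy genes reached 2-fold, as was the case over all genes (5.21% and 5.89% higher, 1.21% and 3.43% lower). Growth factor receptors and EGF ligands had medians of -0.12 and 0.05 with none of 12 called, and the fibroblast growth factor receptor gene Fgfr2 stood at 217 against 216 CPM and 206 against 180 CPM. Of 12 measured Wnt, Notch and YAP target genes, Nrarp, a feedback inhibitor of Notch, was higher in both libraries, at 7.43 CPM (5.80 to 9.37) against 1.66 CPM (1.35 to 2.02) and 7.92 CPM (5.61 to 10.9) against 1.24 CPM (0.929 to 1.63). The YAP target Ccn2 was lower in the fibrogenic library with a log2 ratio of -1.31. Nuclear genes of the respiratory chain had medians of 0.04 and 0.12. Glycolysis genes had medians of 0.08 in the normal and 0.44 in the fibrogenic library, with 10 and 13 of 14 above 0 and none called in either.

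Genes on no list that were highest in cycling cells of both libraries were mostly replication-dependent histone genes and further cell cycle genes. The 10 ranked first comprised the histone genes Hist1h2ap, Hist1h1b, Hist1h2ae and Hist1h2ab with Pbk, Pclaf, Esco2, Neil3, Shcbp1 and Depdc1a. Hist1h2ap was the most abundant of them, at 736 against 16.5 CPM and 1054 against 16.4 CPM. The 10 ranked lowest comprised Sec14l3, Sprr1a, Fbln5, Ifit3b, Pmp22, Gsn, Susd2, Hspb1, A230057D06Rik and Snx22. Sec14l3, a lipid-transfer gene, had log2 ratios of -2.80 and -4.67 (0.417 CPM, 0.0505 to 1.51, against 35.0 CPM in the fibrogenic library), and the cornified envelope gene Sprr1a -2.85 and -3.25. These rest on 36 and 2 UMIs of Sec14l3 and 4 and 7 of Sprr1a in cycling cells. A UMI of Sprr1a was found in 4 of 155 and 3 of 71 cycling cells and in 70 of 1310 and 71 of 968 reference cells. In the reference, 1 cell of each library held 196 and 391 of its UMIs. Among cells of 20000 to 60000 UMIs Sprr1a came to 0.10 in the fibrogenic library. Pmp22, a membrane protein gene, followed at -1.94 and -3.11.

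Markers of other cell types were measured in the same cells. The 12 FB markers summed to 505 and 570 CPM in cycling cells, to 659 and 847 CPM in the reference and to 18749 and 18608 CPM in FB barcodes, and all 12, which include the capped Col1a1 and Col1a2, were detected in cycling cells. Most of the sum in cycling cells came from Sparc, at 430 and 434 CPM. It had a UMI in 154 of 155 and 71 of 71 cycling cells and in 1305 of 1310 and 961 of 968 reference cells. Endothelial, immune, airway and basal, and mesothelial markers each summed to at most 14.2 CPM in cycling cells, with between 3 and 6 genes of each list at 0. The part of FB transcripts in the results was not tested.

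The cycling cells of the fibrogenic library were then set beside those of the normal library. With 1 library each and cells of 1 source, this compares 2 libraries. Of 10455 genes 0.354% were at least 2-fold higher and 0.163% lower in the fibrogenic library, and the median log2 ratio was 0.01. No S phase or G2/M gene was called. The S phase genes had a median of 0.20 with 32 of 39 above 0, and the G2/M genes a median of 0.18 with 69 of 71 above 0. The median of Mki67 and Top2a was also higher in these cells, and its part in these values was not tested. In the reference the same lists stood at 0.03 and -0.23.

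AEC2 genes had a median of -0.06 between the libraries and none was called. The surfactant gene Sftpa1 was the lowest, at 1214 CPM (1183 to 1245) with fibrogenic and 2076 CPM (2048 to 2105) with normal FBs, a log2 ratio of -0.77 in cycling cells and of -0.74 in the reference. Per cell its median was 713 against 1502 CPM, with ranges of 0 to 10410 and 0 to 7856 that overlapped. AEC1 genes had a median of -0.16 in cycling cells, 0.18 among those of 20000 to 60000 UMIs, and 0.17 in the reference. Clic5 was called lower (-1.10). Of its UMIs, 57 of 178 in the normal library and 23 of 39 in the fibrogenic library came from 1 cell each, and without these cells the levels were 12.9 and 3.38 CPM.

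Of 7 genes taken from earlier results on the epithelium of these libraries, and so not independent of them, 5 could be measured in cycling cells. Ptprn2, a phosphatase-like protein of secretory granules, was at 43.4 CPM with normal and 19.6 CPM with fibrogenic FBs (log2 ratio -1.11, and -1.71 in the reference). Phgr1 and Cd177 had ratios of -0.58 and -0.42 in cycling cells and of -1.62 and -1.38 in the reference. Lyz1, a lysozyme gene, was at 53.9 against 2.71 CPM, but 496 of its 515 UMIs came from 1 cell of the normal library, without which the levels were 2.02 and 2.11 CPM. Crym was at 11.4 and 14.6 CPM, and 77 of 109 and 53 of 70 of its UMIs came from 1 cell each. In the reference its log2 ratio was 1.65.

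Gdf15, a stress-induced cytokine gene and p53 target, was higher in cycling cells of the fibrogenic library, at 133 CPM (123 to 144) against 53.3 CPM (48.8 to 58.2), a log2 ratio of 1.30 against 0.24 in the reference. It was detected in 47 of 71 and 78 of 155 cycling cells, and without the top cell of each library the levels were 112 and 46.5 CPM. Pthlh, the gene of parathyroid hormone-related protein, had the highest ratio of the genes on no list (1.82, from 21.1 against 5.23 CPM), with 59 of 101 UMIs from 1 cell and levels of 8.92 and 4.34 CPM without the top cells. Among cells of 20000 to 60000 UMIs its ratio was -1.62. The rest of the 10 highest were Fbln2, Chrna9, Gm15345, Mmp3, Gm49980, Plat, Stk32a, Itih4 and Cpxm1, with log2 ratios from 1.41 to 1.75. Among them Fbln2, Mmp3 and Cpxm1 stood between 355 and 994 CPM in FB barcodes. In cycling cells 7 of 7 measured FB markers were above 0 in the same contrast, with a median of 0.87. In the reference 10 of 11 measured FB markers were above 0, with a median of 0.65. That list holds the collagen genes the rule capped. Col3a1, which the rule did not use, stood at 37.3 against 21.2 CPM in cycling cells and 37.4 against 21.4 CPM in the reference. The 10 lowest were 9330188P03Rik, Cep126, Plb1, Prickle1, Nrn1, Gm42047, Scx, Hid1, Sema3a and 4632411P08Rik, with log2 ratios from -1.61 to -1.21. The levels were low in part. Cycling cells of the normal and fibrogenic library held 50 and 5 UMIs of 9330188P03Rik, 62 and 8 of Cep126, and 53 and 8 of Scx. A gene scarce in 1 library passes the 50 UMIs mainly through the other, so both lists of 10 are a description.

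**Figure D5:**
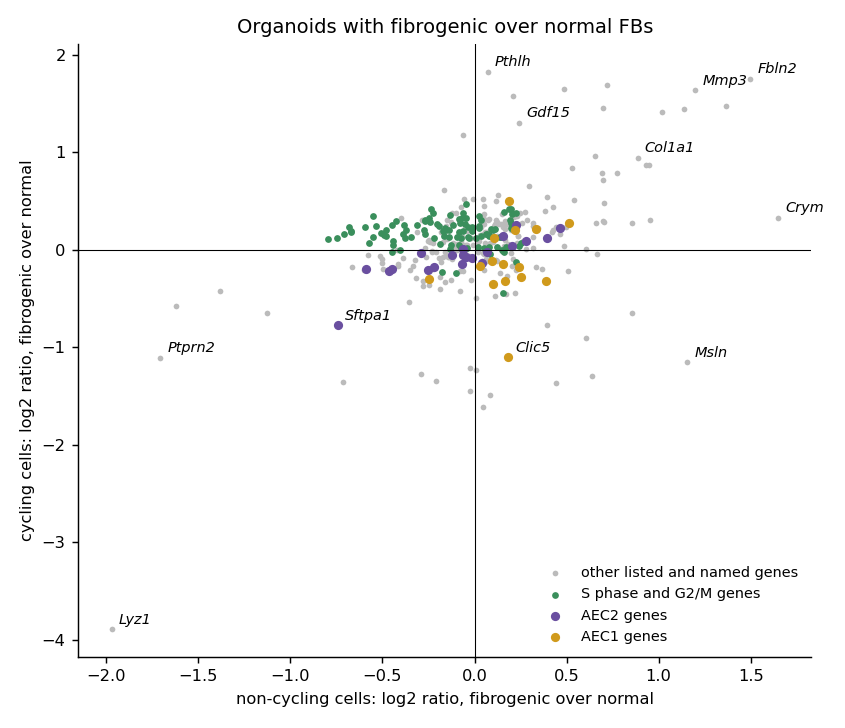
The plot gives the log2 ratio of organoids with fibrogenic over normal FBs in non-cycling cells (x axis) and in cycling cells (y axis) for listed and named genes measured in both, coloured by list, with selected genes labelled. S phase and G2/M genes (green) lie within 1 of 0 on both axes, Sftpa1 is low on both (-0.74 and -0.77), and Gdf15 lies high on the y axis alone (0.24 and 1.30).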

How the data were processed

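The 2 alveolosphere libraries hold droplet single-cell RNA-seq of dissociated organoids. The deposited counts are whole UMIs per gene and barcode, made by the authors with Cell Ranger 3.0.1 on mm10, and Seurat 3 is also named in the submitters' processing notes. The 4 lung libraries were not used here. Barcodes were taken as deposited, with no further filter than the stated rule, and each library was fitted apart. UMIs were summed per class and scaled to CPM, with exact Poisson intervals for levels and exact Clopper-Pearson intervals for shares at 95%. Ratios were taken after adding 1 CPM, for genes with at least 50 UMIs in the groups compared, and a gene was called at 2-fold. With 1 library per condition no test was made. UMIs are molecules, and intervals cover counting error only. Scrublet, run through scanpy 1.11.5, marked 2 of 5441 (0.0368%) and 0 of 8894 barcodes and none of the cycling cells. A caller that marks under 0.5% has not worked, so doublets were in effect kept, and cells above 100000 UMIs were left out as an alternative. Cells were thinned with a fixed seed. Recovery of known ratios was checked on simulated data. Python 3.11.15, numpy 2.4.6, scipy 1.17.1 and pandas 2.3.3 were used.

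The cells, gene lists and tests were chosen with earlier results of these data known. The genes named were those of the rule, the 3 highest and 3 lowest ratios of each list, the 10 highest and 10 lowest on no list, and for alveolar genes and those set apart by FB origin also the 2 highest and 2 lowest of fibrogenic over normal. Well-known list members such as Pcna, Ccnb1, Cdkn1a, Sftpc and Krt8 were named as cell type or cell cycle markers. The alternatives were other limits of Mki67 and Top2a, other added CPM, per-cell means, cells of 20000 to 60000 UMIs and a reference with no UMI of either gene. Other UMI limits, thinned cells, no limit on Cldn4 and Sfn, and a mitochondrial limit were applied to the shares. No filter on low counts and centring on the median gene were applied to the ratios, and removal of the barcodes marked by Scrublet to both. Added after seeing the data were at most 100000 UMIs, Hopx below 500 CPM, G2/M lists without 4 genes, and the shorter promoter window. Promoters came from the RefSeq table for GRCm38.p6, the assembly behind mm10, matched by symbol.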

Additional observations from a re-analysis of the deposited data

Results flagged for a closer look

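Msln, a mesothelial surface gene, had a log2 ratio of fibrogenic over normal of -1.15 in cycling cells and of 1.16 in non-cycling cells, so it stood out for opposite directions in the 2 classes. The difference was not tested. Among cycling cells of 20000 to 60000 UMIs the ratio was 0.33, in the direction of the non-cycling cells. In cycling cells it rested on 56 UMIs in 5 cells of the normal library, 34 of them in 1 cell, and on 10 UMIs in 4 cells of the fibrogenic library, 7 of them in 1 cell.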

How the results depend on the processing

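No paired analysis was possible because each condition had 1 library, and for the same reason no replicate could be left out. Of the main summaries, 97 of the planned values kept within a set margin and direction and 25 moved. The same held for 24 and 9 of the added ones. For shares the margin was the exact interval. For list medians it was the median distance from middle to end of the single-gene intervals, which is no interval of the list median. The 97 include values after removal of the barcodes that Scrublet marked. That step took out no cycling or reference cell, so the values of these classes could not move under it. Nor could the S phase and G2/M medians move without the filter on low counts, as all 39 and 71 genes passed it. The share of cycling cells was 12.8% and 8.33% in the normal library at 100 and 400 CPM, and 8.85% in the fibrogenic library at 100 CPM. With at most 100000 UMIs the share among Cldn4- and Sfn-high barcodes of the normal library was 0.0% (0 of 160). The S phase median of the normal library was 2.51 with 0.1 CPM added, 1.65 with 10 CPM, 2.50 with per-cell means, 2.83 against a reference with no Mki67 or Top2a UMI, and 2.60 at 20000 to 60000 UMIs. In the fibrogenic library it was 1.82 with 10 CPM, 2.92 against that reference and 2.79 at 20000 to 60000 UMIs. The G2/M median was 4.33 and 4.93 with 0.1 CPM, 2.51 and 2.73 with 10 CPM, and 4.62 and 5.0 against the reference with no UMI (normal, then fibrogenic). The AEC2 median was -0.17 and -0.20 at 20000 to 60000 UMIs, -0.20 in the normal library at most 100000 UMIs, and -0.27 and -0.28 with Hopx below 500. The AEC1 median was -0.76 with 10 CPM, -1.22 with per-cell means and -1.15 at 20000 to 60000 UMIs in the normal library, -1.23 and -1.20 against the reference with no UMI, and -0.066 and -0.14 with Hopx below 500. Between the libraries the AEC1 median was 0.18 at 20000 to 60000 UMIs, where 73 and 25 cycling cells remained. Cells leaning to G2/M made up 83.2% and 85.9% with 67 genes, and the CHR share of G2/M promoters was 29.0% before the start only.

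Of the single-gene values that were at least 2-fold, 7 planned and 4 added changed sign, and smaller values that crossed 0 are not counted. Lyz1 in the normal library was -3.11 at 20000 to 60000 and -2.5 at most 100000 UMIs, and between the libraries 0.91 and 0.040. S100a6 (normal) and Hopx (fibrogenic) were 0.50 and 0.14 with Hopx below 500. At 20000 to 60000 UMIs Phgr1, Pthlh and Sprr1a in the fibrogenic library were -0.50, -2.15 and 0.10, and Msln and Pthlh between the libraries 0.33 and -1.62. Hopx was itself the gene of that limit, so its value there describes the choice of cells. Of the 515 Lyz1 UMIs in cycling cells of the normal library, 496 came from 1 cell. Apart from Hopx, the cause of these changes was not tested.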

Other observations

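Glycolysis genes differed less between the libraries in cycling than in non-cycling cells: the median log2 ratio of fibrogenic over normal was -0.14 in cycling cells, with 13 of 14 genes below 0, and -0.48 in the reference, with 14 of 14 below 0. Tpi1, the triosephosphate isomerase gene, stood at 838 and 807 CPM in cycling cells of the normal and fibrogenic library and at 703 and 471 CPM in the reference. The difference between the classes was not tested.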
